A study of Homo sapiens with 6 samples.

Results

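The genes described here carry more PRO-seq signal just past their annotated end than over the far end of their body. They were chosen by measured signal averaged over all 6 libraries of the study. Each gene's profile has 300 bins over the gene body followed by 100 bins past its end. E is the mean of the bins past the end and L the mean of the last 100 body bins. A gene was a member where L was at least 5, E/L was at least 2, and the mean of the first 2 body bins over the mean of the body without its first 3 bins lay between 2 and 50. Of 51974 genes with a profile, 15276 reached the minimum of L, 1208 of these also had E/L of at least 2, and 913 passed every condition. The ratio at the promoter left out the other 295, of which 249 were at 2 or under and 46 at 50 or above. The E, L and E/L levels below describe how the members were chosen and are given without a test. The difference between siRNAs was not itself used in the choice, though a gene can reach the threshold through 1 group where its ratio is high.

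PRO-seq extends nascent RNA in permeabilized cells, so its reads mark engaged RNA polymerase. Polymerase II does not stop at the annotated end of a gene. The cleavage and polyadenylation complex cuts the transcript at the poly(A) site, the exonuclease XRN2 degrades the RNA still being made, and polymerase slows past the site before it leaves the template. Engaged polymerase also gathers just after a promoter, where it pauses before productive elongation, so a gene that starts shortly past the end of another adds signal of its own to the same stretch.

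The cells, labelled wild type, belonged to SBC-3, an established line from a human small cell lung cancer. They were reverse transfected with 10 nM siRNA, either a control (siCtrl) or one targeting SFPQ, of which there were 2 (siSFPQ-2, siSFPQ-3), and were permeabilized at 72 h, with 2 libraries in each of the 3 groups. The protein SFPQ binds nucleic acids and is a core part of nuclear paraspeckles, and the comparison asks how nascent transcription differs when it is targeted. Nothing in the labels says that the replicate libraries were separate cultures. The p-values therefore measure only the spread between these libraries, which may be technical. The libraries held between 12072813 and 18475158 reads, of which 4.04 to 4.57% lay on the members. At SFPQ itself the normalized reads were 2294 and 2435 with siCtrl, 1825 and 1972 under siSFPQ-2 and 1922 and 2466 with siSFPQ-3, a log2 change of -0.22 ± 0.11 (SE, limma adjusted p = 0.137). An siRNA acts on the finished mRNA, so nascent reads at SFPQ do not show the depth of the knockdown. Without the siSFPQ-3 library 2 the change was -0.31 with an adjusted p of 0.0255. Of 8 markers of small cell lung cancer, of which POU2F3 is not a neuroendocrine one, 5 were listed in the table of reads. CHGA was at 0 to 5.54 normalized reads. Their sum was 519.5 to 555 with siCtrl and 369 to 582 with the SFPQ siRNAs, and of the 4 tested, 2 fell (DLL3 by 0.83 and POU2F3 by 0.54, limma adjusted p = 0.0073 and 0.0216) and none rose. The epithelial markers summed to 921 to 1016 and 2207 to 2717 in the same order, of which KRT8 and KRT18 rose and EPCAM was not called. Of the markers of a non-neuroendocrine state 2 of 4 rose and 1 fell, of 2 fibroblast markers listed 1 rose, of 2 immune markers 1 rose and 1 fell, and no endothelial marker was listed. In such bulk libraries fewer cells of a type and less RNA per cell cannot be told apart.

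The stretch past the end was mapped from the values themselves. In each library the values of the outer bins were whole multiples of 0.1 of the value of 1 read (99.975 to 99.998% of values), and the value of 1 read differed by the strand of the gene, for example 2.59 for genes on the plus strand and 2.71 for genes on the minus strand in siCtrl library 1. An outer bin was therefore taken to span 10 bases, and the window past the end 1000 bases. The profiles were taken to hold signal of the gene's own strand. Bin width and strand use are inferred here and are not stated for the deposited profiles. Of the 913 members, 862 were matched to a gene of the RefSeq table (GRCh38.p14). A second gene started on the same strand within those 1000 bases for 239 of them (27.7%), against 360 of 12291 other genes of the same minimum L (2.93%).

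For 5 of the members called lower in E/L with the SFPQ siRNAs (below), the whole stretch from the RefSeq end of the member to the start of the next gene is short enough to print. These 5 were picked for a next start within 250 bases, so their short stretches do not describe the members at large. Over the 239 members with a same-strand start the median distance was 498 bases. The stretches are chr16:2520219-2520370 between ATP6V0C, a proton pump subunit gene, and AMDHD2; chr15:41827856-41828091 between MAPKBP1 and JMJD7; chr10:73772162-73772275 between SEC24C, a coat protein gene of endoplasmic reticulum export, and POFUT4; chr12:53299451-53299694 between PFDN5, a prefoldin subunit gene, and MYG1; and chr19:13774283-13774455 between MRI1 and C19orf53. All lie on the plus strand of GRCh38.p14 and were read from RefSeq promoter windows. No other RefSeq gene lies in them. Capitals mark matches, on either strand and overlaps included, to the GC box (GGGCGG), the CCAAT box (CCAAT), the core ETS site (CCGGAA), the TATA box (TATAAA) and the E box (CACGTG).
ATP6V0C to AMDHD2: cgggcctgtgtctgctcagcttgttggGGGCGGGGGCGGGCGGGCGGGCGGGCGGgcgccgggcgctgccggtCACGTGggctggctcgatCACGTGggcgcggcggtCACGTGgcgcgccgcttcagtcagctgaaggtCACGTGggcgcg
MAPKBP1 to JMJD7: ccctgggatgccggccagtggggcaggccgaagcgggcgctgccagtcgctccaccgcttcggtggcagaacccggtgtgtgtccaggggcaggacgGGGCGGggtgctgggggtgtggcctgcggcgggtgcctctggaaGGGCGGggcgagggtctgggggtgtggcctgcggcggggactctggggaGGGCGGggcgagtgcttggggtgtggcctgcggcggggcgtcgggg
SEC24C to POFUT4: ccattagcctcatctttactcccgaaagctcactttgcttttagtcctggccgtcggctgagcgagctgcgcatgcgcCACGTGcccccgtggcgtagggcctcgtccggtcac
PFDN5 to MYG1: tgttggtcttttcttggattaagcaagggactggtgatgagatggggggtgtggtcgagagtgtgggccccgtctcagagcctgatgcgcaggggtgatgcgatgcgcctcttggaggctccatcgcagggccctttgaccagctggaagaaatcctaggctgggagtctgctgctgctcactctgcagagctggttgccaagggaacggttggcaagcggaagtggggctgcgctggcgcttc
MRI1 to C19orf53: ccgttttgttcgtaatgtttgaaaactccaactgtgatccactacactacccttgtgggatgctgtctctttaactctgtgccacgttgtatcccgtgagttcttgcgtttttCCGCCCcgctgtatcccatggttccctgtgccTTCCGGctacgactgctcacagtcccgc
The ATP6V0C stretch of 152 bases was 77.6% G or C and held 6 GC boxes and 4 E boxes. The MAPKBP1 stretch of 236 bases was 77.1% G or C with 3 GC boxes. The MRI1 stretch held 1 GC box and 1 ETS core, the SEC24C stretch 1 E box, and the PFDN5 stretch none of the 5 motifs. Over the 176 next genes with a promoter window of 300 bases at the start used, a GC box was present in 83.5% of windows, against 45.0% of all 35116 windows in the table. The ETS core was present in 39.2 against 17.2%, the E box in 17.6 against 7.26%, the CCAAT box in 35.8 against 34.6% and the TATA box in 5.68 against 11.5%. Their median G and C content was 66.3%, against 58.7% over all windows. The next genes of non-members were not set beside them. Where the end of a member fell inside the window of the next gene, its last 40 bases held AATAAA or ATTAAA, the poly(A) signal, in 16 of 22 members, against 3.16% of the first 40 bases of all windows. That sets gene ends against promoter sequence, and the ends of other genes were not searched. These are matches of letters and not shown sites.

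Members differed first in what lies past their end. Beside the 239 with a same-strand start, 191 had only a gene on the opposite strand in the window, 31 a gene of unknown strand and 14 an end inside another gene of the same strand, while 387 (44.9%, against 63.6% of other genes) had no RefSeq gene in it. The other 51 had no match. The share with a same-strand start was larger at higher E/L: 11.6% of 545 placed members with E/L from 2 to 3, 38.2% of 173 from 3 to 5, 72.8% of 103 from 5 to 10 and 85.4% of 41 at 10 or more. The median E/L was 4.55 with a same-strand start, 2.37 with an opposite-strand gene only and 2.41 with no gene. Members were shorter than other genes, with a median RefSeq span of 16.5 kb against 25.1 kb, and 92.1% of them were protein-coding against 75.7%. Just inside the threshold stood SLC25A1, PCIF1 and RPS2, at E/L of 2.0004, 2.001 and 2.001, and just outside it BCL7A, ZCCHC14 and TSPAN15, at 1.999, 1.999 and 1.9995, so the edge of the set cuts through a continuous range. E/L was at least 2 in every library for 462 members and at least 1 in every library for 897.

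**Figure D1:**
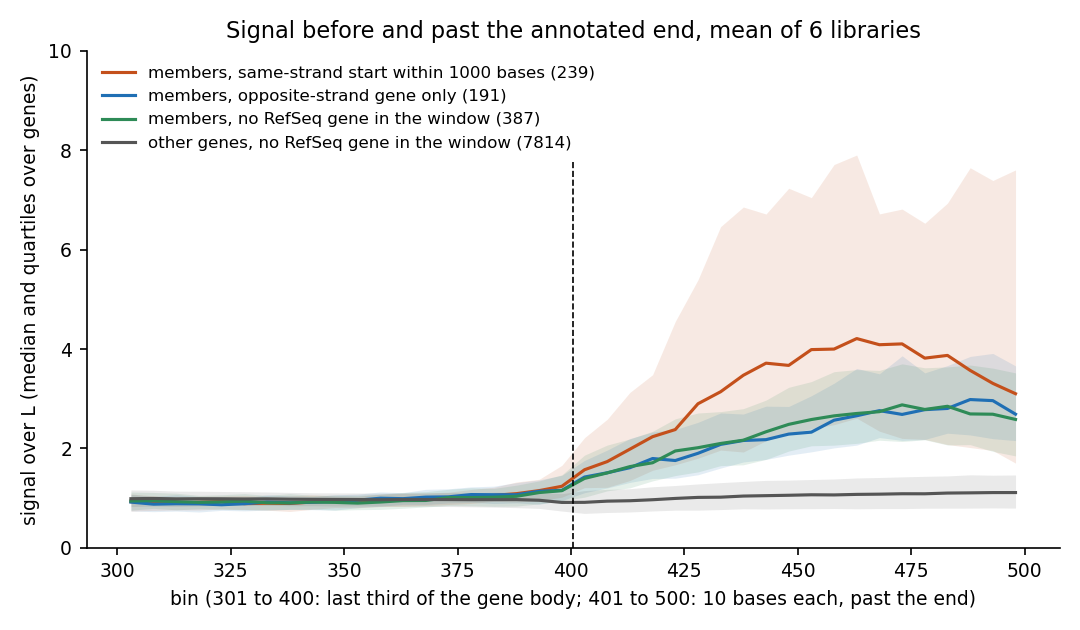
Signal in blocks of 5 bins over each gene's L, averaged over 6 libraries, along the last 100 body bins and the 1000 bases past the end, as median (line) and quartiles (band) over genes. Members with a same-strand start rise most, those with no gene or an opposite-strand gene rise to between 2 and 3, and other genes stay near 1.

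The shape past the end differed between these classes. In members with no RefSeq gene in the window the median signal relative to L climbed from 1.47 in the first 100 bases to 2.83 between 700 and 800 bases and was 2.68 in the last 100. Members with only an opposite-strand gene went from 1.45 to 2.95 between 800 and 900 bases. Both classes had their highest medians in the far part of the window. Members with a same-strand start went from 1.64 to 4.28 between 600 and 700 bases, then down to 3.46. Other genes with no gene in the window stayed between 0.934 and 1.12 throughout, and those with a same-strand start between 1.099 and 1.301.

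**Figure D2:**
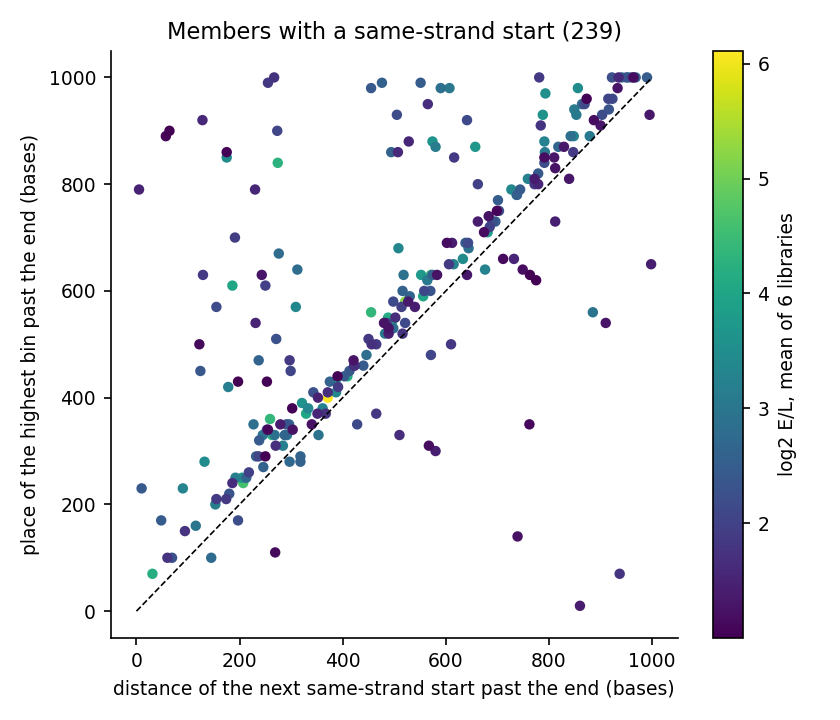
Place of the highest bin past the end (vertical, bases) against the distance of the next same-strand start (horizontal, bases), 1 point per member of the 239, coloured by log2 E/L. Most points lie on or just above the dashed line of equal distance: of those with a start within 900 bases, 65.6% have their highest bin 0 to 15 bins past it.

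The highest bin of the members with a same-strand start followed that start where it lay more than 200 bases away. The median was bin 34 past the end where the next gene started 200 to 300 bases away and bin 39 for 300 to 400 bases. It was bin 60 for 500 to 600 bases and bin 89 for 800 to 900 bases. Nearer starts were not followed in this way, with a median of bin 20 within 100 bases (10 members) and bin 42 for 100 to 200 bases (21 members). Over the 221 members with a start within 900 bases, the slope was 6.46 bins per 100 bases, below that of equal distance. Pearson's r of distance and highest bin over these members was 0.617 and Spearman's rho 0.625, as a description across genes of the same libraries. In 145 of these (65.6%) the highest bin came 0 to 15 bins after the start, with a median of 5.1 bins. The 6 libraries placed it within 5 bins of each other in 147 of 239 such members (61.5%), against 54 of 387 members (14.0%) with no gene in the window. The median E was 299 in the former and 66.6 in the latter, and the part of this difference in signal was not tested.

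The members with the highest E/L show both kinds. SLC44A4, a choline transporter gene at chr6:31863192-31878997 on the minus strand, is followed after 371 bases by NEU1, the lysosomal sialidase gene, and its E/L was 99.8 and 123 with siCtrl, 50.2 and 77.5 under siSFPQ-2 and 44.3 and 71.4 with siSFPQ-3. Its highest bin was bin 40 or 41 in every library. GAL3ST4, CCDC183, TMEM62, MDP1 and ABHD17A are also followed by a same-strand start within 207 to 521 bases, that of TRAPPC14, RABL6, CCNDBP1, CHMP4A and KLF16. Their mean E/L ran from 19.6 (ABHD17A) to 36.03 (GAL3ST4). ADCK2 had E/L of 26.0 with only NDUFB2-AS1 on the other strand in the window, NDUFB2 starting after 1598 bases. SH2D6 had E/L of 19.6 with no RefSeq gene in the window, and its highest bin moved between bins 76 and 86. The highest value, 71.7, belonged to ENSG00000268093, a long non-coding gene with no RefSeq match, whose L was 3.31 to 8.92.

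Gene families were unevenly held, in counts made after the data were seen. Of 78 cytosolic ribosomal protein genes with enough signal, 13 were members (16.7%, against 5.98% of all 15276 genes), among them RPL18, RPL26, RPS2 and RPS18. Of 34 genes of complex I of the respiratory chain, 6 were members, and of 404 numbered ZNF zinc finger genes 26 (6.44%). None of 59 replication-dependent histone genes, whose mRNAs end without a poly(A) tail, was a member, and their median E/L was 0.388.

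With the SFPQ siRNAs the signal past the end was lower relative to the end of the body. The median E/L over the 913 members was 3.23 and 3.07 with siCtrl, 2.63 and 2.51 under siSFPQ-2 and 2.54 and 2.55 with siSFPQ-3. Both siCtrl libraries were above all 4 others, in the members with a same-strand start (5.50 and 5.38 against 4.28 to 4.53), with an opposite-strand gene only (2.90 and 2.67 against 2.23 to 2.32) and with no gene (2.95 and 2.80 against 2.25 to 2.41) alike. Other genes stood at 1.135 and 1.08 with siCtrl and at 1.03 to 1.05 in the 4 others. On the scale of log2(E + 1) less log2(L + 1), the median change of the mean of both siRNAs from siCtrl was -0.29 over members and -0.11 over all 15276 genes. Genes below the threshold shared the shift: the median was -0.22 for the 1687 genes with E/L from 1.5 to 2 and -0.12 for the 6279 from 1 to 1.5, against -0.27, -0.26 and -0.28 for genes from 2 to 3, from 3 to 5 and above.

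**Figure D3:**
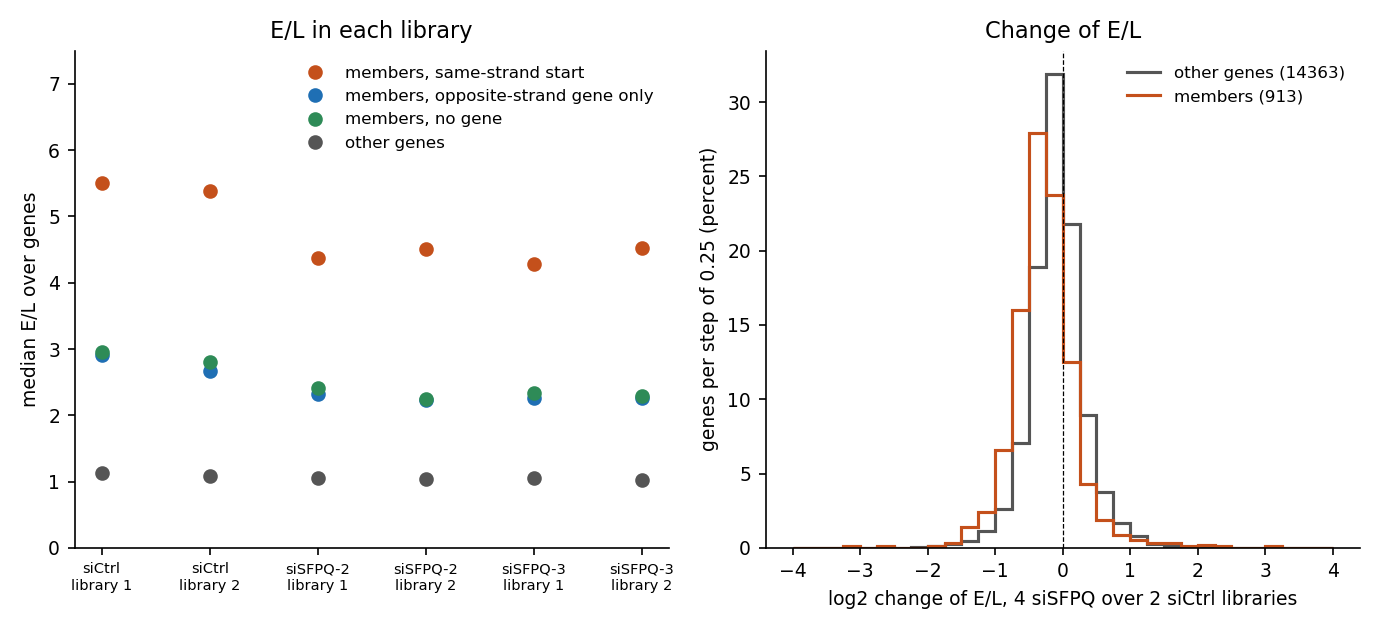
Left, the median E/L over genes in each library for 3 classes of members and for other genes. Right, the share of genes (percent) in steps of 0.25 of the log2 change of E/L; members lie to the left of the other genes, with medians of -0.29 and -0.10.

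Few single genes passed the test of E/L. In limma's fit over 15276 genes, 34 members were called lower and 5 higher at an adjusted p under 0.05 (3.72 and 0.548% of members). Over all genes tested 1.05% were called, 0.314% higher and 0.74% lower. At an unadjusted p under 0.05, 273 members were lower and 38 higher, a count that was not made over all genes. The change was below 0 in 78.8% of members and in 63.5% of all genes. All 4 siSFPQ libraries were below both siCtrl libraries in E/L in 384 of the 911 members with a ratio in every library (42.2%), against 19.8% of all such genes. E/L was at least 2 in every library for only 462 of the 913 members, so the choice can favour a fall where the siCtrl ratios are high. Of the 34 called lower, 20 had a same-strand start in the window. L was called higher in 23 of them and E lower in 12, with both in 3 and neither in 2. Over all genes tested, L was called higher in 23.1% and E lower in 12.3%. The calls rested on every library: without siCtrl library 1 or 2, 1 and 4 members were called lower, without siSFPQ-2 library 1 or 2, 19 and 6, and without siSFPQ-3 library 1 or 2, 10 and 2. The members called higher were 0, 1, 4, 0, 3 and 0 in the same order. Of all 39 calls, MTMR11 is the one that stood without siCtrl library 1. The members' median change stayed between -0.32 and -0.26 in these 6 fits.

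MTMR11, a myotubularin-related gene at chr1:149928651-149936879 on the minus strand, had the largest called fall and was called in every alternative fit (adjusted p = 0.000432 to 0.0298). Its E/L was 54.6 and 49.4 with siCtrl, 8.28 and 8.56 under siSFPQ-2 and 6.55 and 6.60 with siSFPQ-3, a log2 change of -2.68 ± 0.16 (SE, adjusted p = 0.000715). The groups stood far apart, and the change lay in the body. L went from 9.62 and 9.49 to between 70.8 and 82.4, a rise of 2.88 ± 0.13 (adjusted p = 0.000159). E was 526 and 469 with siCtrl and 506 to 663 in the others, and its change of 0.20 ± 0.17 was not called (adjusted p = 0.396). SF3B4, a gene of the U2 splicing complex, starts 848 bases past this end, close to the highest bin at 89, and its reads (356 and 319 with siCtrl, 352 to 443 in the others) were not called either (adjusted p = 0.152).

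RELB, which encodes a subunit of NF-kB, lies at chr19:45001464-45038192 on the plus strand, 853 bases before CLASRP. Its E/L was 41.3 and 20.7 with siCtrl and 5.72 to 8.28 in the 4 siSFPQ libraries, without overlap (log2 change -1.998 ± 0.28, limma adjusted p = 0.0219). L rose by 2.31 ± 0.37 (adjusted p = 0.00518), and E (adjusted p = 0.373) and the reads of CLASRP (0.224) were not called. NFKBIE, an inhibitor of NF-kB, had E/L of 16.7 and 15.5 with siCtrl and 5.20 to 6.34 in the others (adjusted p = 0.0159), with L higher by 1.68 and E not called. TRAF5, a signalling adaptor of TNF receptors, had E/L of 3.87 and 3.86 against 1.93 to 2.25 (adjusted p = 0.0427), with L higher by 1.12. In STAT3, a transcription factor of cytokine signalling, both windows rose, L by 1.89 and E by 1.02, and E/L was 2.86 and 4.22 with siCtrl and 1.75 to 2.13 in the others (adjusted p = 0.0486). The siSFPQ ratios of TRAF5 and STAT3 lay on both sides of 2 and their siCtrl ratios above it, so the choice of members favours a fall in them. The call of RELB was lost without siCtrl library 1 (adjusted p = 0.132), siSFPQ-2 library 2 (0.0544) or siSFPQ-3 library 2 (0.0615). It was also lost with E as the median of its bins, where the change was -0.35 (adjusted p = 0.515), or over the first 50 bins past the end (-0.55, adjusted p = 0.444). In NFKBIE these settings gave -0.86 and -0.54 (adjusted p = 0.119 and 0.371). The calls of TRAF5 and STAT3 were lost without any 1 of the 6 libraries (0.0864 to 0.2005 and 0.0733 to 0.201).

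In other members the signal past the end went down while the body went up or stayed. CCDC28B, 284 bases before IQCC, had E of 732 and 635 with siCtrl and 438.5 to 495 in the others, and L of 35.4 and 31.6 against 55.8 to 85.3. Both changes were called (E -0.55 ± 0.16, limma adjusted p = 0.0359; L 1.09 ± 0.16, 0.00408), and E/L fell by 1.64 ± 0.17 on the log2 scale (adjusted p = 0.01). The reads of IQCC were lower in all 4 siSFPQ libraries (log2 change -0.62, adjusted p = 0.005). GTF2H4, a gene of the general transcription factor TFIIH, had E/L of 23.4 and 19.1 against 7.11 to 8.59, with E lower by 0.70 and L higher by 0.69; VARS2 starts 132 bases past it, with a change of reads of -0.60 (adjusted p = 0.00119). For ATP6V0C, whose stretch is printed above, E was 518 and 758 with siCtrl and 287 to 373 in the others (-0.90 ± 0.21, limma adjusted p = 0.0186) and L was not called. AMDHD2 past it changed by -0.78 (adjusted p = 0.00205). COQ8B, 879 bases before NUMBL, had E of 2643 and 2642 with siCtrl and 1119 to 1683 in the others (-0.91 ± 0.15, limma adjusted p = 0.00514), L differing by 0.04. NUMBL changed by -0.52 (adjusted p = 0.00415). SOS2, 558 bases before VCPKMT, had E/L of 9.05 and 9.03 against 2.87 to 3.51, L higher by 0.96 and E not called. In the other printed stretches, SEC24C, PFDN5, MAPKBP1 and MRI1, L was called higher (by 0.87, 0.80, 0.64 and 0.78) and E was not. The call of CCDC28B was lost without siCtrl library 1 (adjusted p = 0.117) or 2 (0.0856) and with E as the median of its bins (0.189). That of SOS2 was lost without any of the libraries but siSFPQ-2 library 1 (0.0639 to 0.157), and with E as its median the change was -0.27 and over the first 50 bins 0.39 (adjusted p = 0.698 and 0.681). Over the first 50 bins the calls of GTF2H4, ATP6V0C and COQ8B were lost too (0.0583, 0.0589 and 0.236).

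DNAJB5, a heat shock protein family gene, has no RefSeq gene within the window and is among the 5 largest called falls. Its E was 1724 and 1796 with siCtrl, 1271 and 753 under siSFPQ-2 and 1400.2 and 861 with siSFPQ-3, and its L 167 and 139.8 against 251 to 279.9. The highest bin, 76 or 77 in every library, held 14.1% of the signal past the end, so the window holds a sharp peak far from the end with no RefSeq start near it. The change of E/L was -1.56 ± 0.25 (limma adjusted p = 0.0306) and was lost without either siCtrl library (0.151 and 0.18), siSFPQ-2 library 2 (0.0638) or siSFPQ-3 library 2 (0.0615). With E as the median of its bins, which leaves such a peak out, the change was -0.09 (adjusted p = 0.803). The ribosomal protein genes RPL18, RPL26 and RPS18 were called lower in E/L by 0.60, 0.85 and 0.61, with E called lower and L not called in each. Of the 13 ribosomal protein members 12 had a change below 0, with a median of -0.45, where 78.8% of all members and 63.5% of all 15276 genes were below 0. Among the mitochondrial ribosomal protein members 6 of 8 were below 0 (median -0.07), and among those of complex I 4 of 6 (-0.15).

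**Figure D4:**
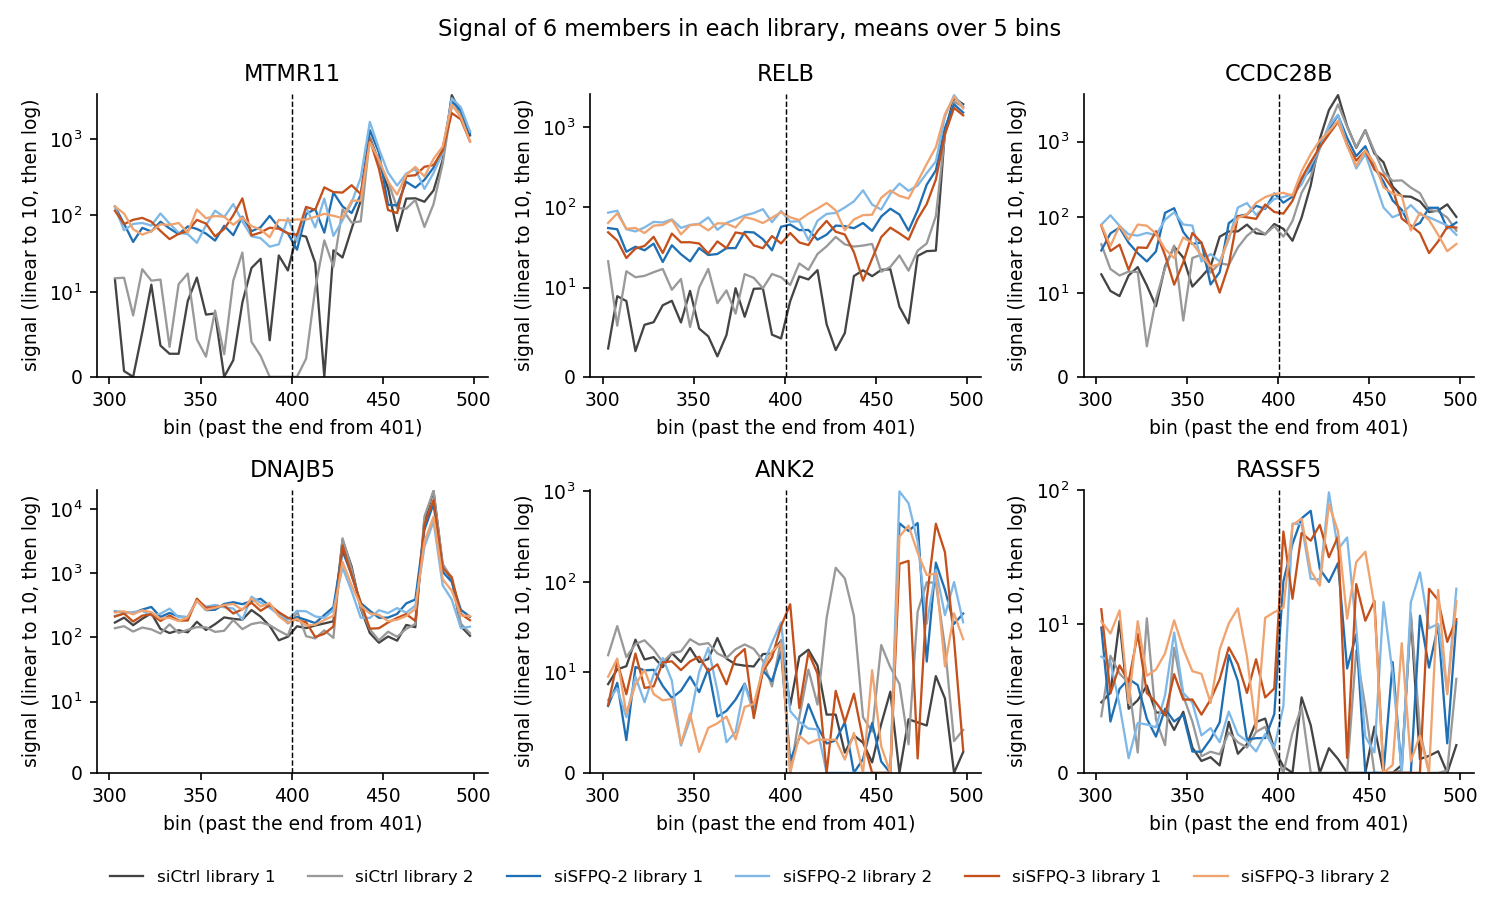
Signal in each library over the last 100 body bins and the 100 bins past the end (blocks of 5 bins, dashed line at the annotated end, vertical axis linear to 10 and logarithmic above) for 6 members. In MTMR11 and RELB the siSFPQ libraries lie above siCtrl before the end and overlap with it further past it. In CCDC28B they lie above over the first 20 bins past the end and below at the peak, next to the start of IQCC.

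The 5 members called higher in E/L had ratios under 2 in both siCtrl libraries and reached the threshold through the siSFPQ libraries, so the choice of members favours their direction and these calls support nothing further. RASSF5, a RAS-binding gene, had E of 1.59 and 2.06 with siCtrl and 16.6 to 22.7 in the others (2.90 ± 0.29, limma adjusted p = 0.000768) while L was not called, and EIF2D lies in its window on the opposite strand. ANK2, which encodes ankyrin B, had E of 5.99 and 34.0 with siCtrl and 59.3 to 119 in the others, and E/L of 0.402 and 1.86 against 4.69 to 11.5. Over the first 50 bins of the window its change was the other way (-1.09), with an adjusted p of 0.493. TNFRSF6B, a decoy receptor gene that ends inside the readthrough gene RTEL1-TNFRSF6B, and TEX54, 270 bases before STX5, had no called change of E, and L fell by 1.58 and 1.26. ENSG00000285816, a protein-coding gene with no RefSeq match, had E of 21.6 and 14.4 against 70.4 to 107. All 5 calls were lost without siCtrl library 1 (adjusted p = 0.111 to 0.225), siSFPQ-2 library 2 (0.0572 to 0.0855) or siSFPQ-3 library 2 (0.0615 to 0.082), and all but that of ANK2 without siCtrl library 2 (0.121 to 0.186).

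The siRNAs were also taken one by one. With siSFPQ-2 the members' median change of E/L was -0.29, with 10 members called lower and 2 higher (0.281% of all genes called, 0.183% lower and 0.0982% higher), and with siSFPQ-3 it was -0.30, with 2 called lower and none higher (0.0655% of all genes called, 0.0327% in each direction). These share the siCtrl libraries. MTMR11 and CCDC28B were called with each siRNA, by -2.50 and -1.76 under siSFPQ-2 and by -2.86 and -1.52 with siSFPQ-3. Between siSFPQ-3 and siSFPQ-2, limma called no member (0% of all genes called), and the members' median difference was -0.005. At an unadjusted p under 0.05, 21 members were higher and 19 lower, which was not counted over all genes.

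As levels, E was called lower in 183 members and higher in 67 (27.4% of all genes called, 12.3% lower and 15.1% higher), with a median log2 change of -0.23 against 0.01 over all genes. L was called higher in 187 and lower in 112 (34.5% of all genes called, 23.1% higher and 11.4% lower), with a median of 0.09 against 0.12 over all genes. The members' median thus lay further from that of all genes in E than in L. The choice of members used E and L, and it can favour a fall of E where E/L was high with siCtrl. How the profiles were scaled before deposit is not stated. With each library scaled to the same total, E was lower in 129 and higher in 75 members (median -0.16). Without siCtrl library 1 or 2, E was lower in 35 and 23 members and higher in 20 and 24, and L higher in 84 and 106 and lower in 27 and 26. Without siSFPQ-2 library 2, E was lower in 94 and higher in 43.

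Reads counted over each gene gave the members' own level of transcription. Of 885 members in the table of normalized reads, 184 were called higher and 234 lower with the mean of both siRNAs (47.2% of members, with 48% of all 21773 features called, 24.8% higher and 23.2% lower), so their share of calls was near the background. The median log2 change was -0.07 against -0.02 over all features. With siSFPQ-2, 154 were higher and 184 lower (39.2% of all features called, 21.2% higher and 17.9% lower). After siSFPQ-3 the counts were 161 and 223 (43.4% of all features called, 23% higher and 20.4% lower). Between siSFPQ-3 and siSFPQ-2, 1 member was higher and none lower (0.101% of all features called, 0.0781% higher and 0.023% lower). Of the members with a same-strand start, 46 were higher and 60 lower of 231. The genes that start in their windows, 221 tested, were called higher in 28 cases and lower in 78 (12.7 and 35.3%), with a median of -0.18. Without siCtrl library 1 or 2, 123 and 127 members were lower and 118 and 115 higher.

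**Figure D5:**
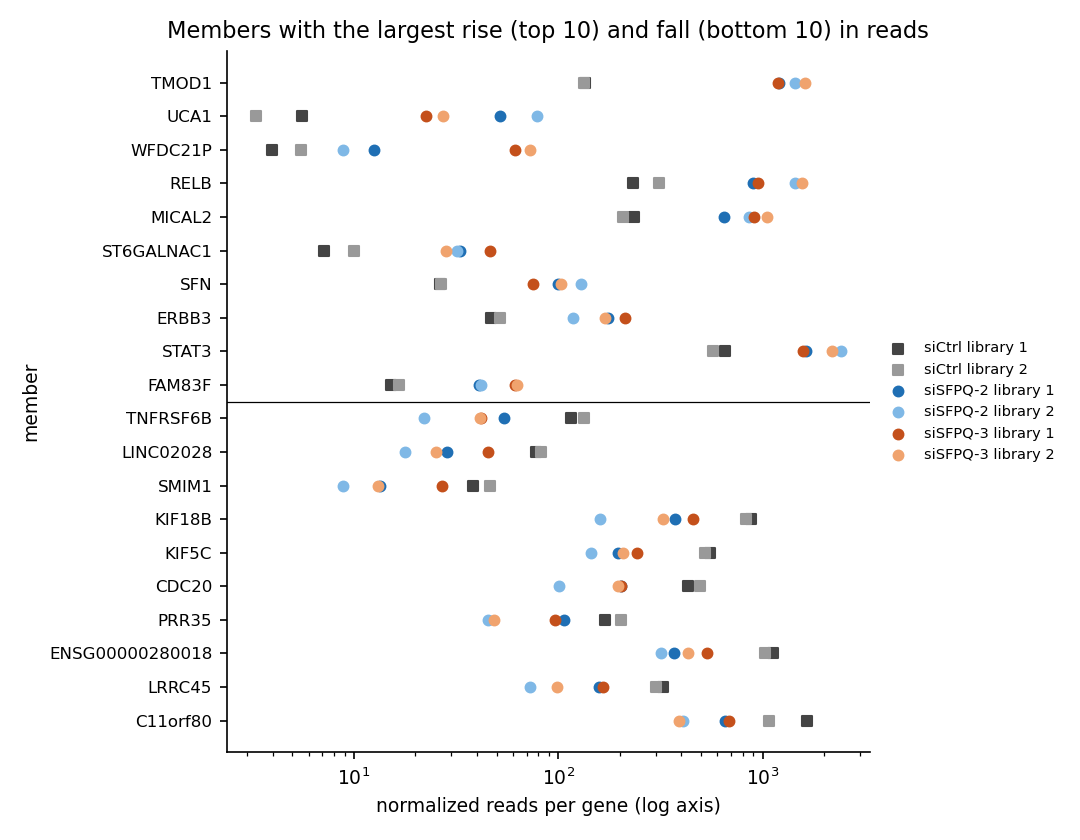
Normalized reads (log axis) of the 10 members with the largest called rise and the 10 with the largest called fall, 1 point per library, squares for siCtrl and circles for the SFPQ siRNAs. In each the 4 siSFPQ libraries lie on one side of both siCtrl libraries.

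TMOD1, which encodes an actin filament cap, had the largest rise in reads, from 135 and 133 with siCtrl to 1201 and 1433 under siSFPQ-2 and 1184 and 1610.3 with siSFPQ-3 (log2 change 3.32 ± 0.13, limma adjusted p = 7.52e-08). Its E/L with siCtrl was only 0.756 and 0.822, from values of E near 1, and was 2.11 to 2.72 in the others, so it is a member through the siSFPQ libraries. UCA1, a long non-coding RNA gene first described in urothelial cancer, had 5.58 and 3.32 reads with siCtrl and 22.6 to 78.6 in the others. Its L rose by 4.25 on the log2(L + 1) scale, so the minimum of L in the choice of members favours its rise. RELB had 231 and 312 reads against 899 to 1559. MICAL2, an actin-oxidizing enzyme gene, ST6GALNAC1, a sialyltransferase gene, SFN, which encodes 14-3-3 sigma, the receptor gene ERBB3, STAT3 and FAM83F rose by 1.95, 1.90, 1.88, 1.72, 1.65 and 1.62. SFN and ERBB3 are known from epithelial cells. Of the epithelial markers KRT8 and KRT18 rose in the same libraries and EPCAM was not called, as given above, and their part in these changes was not tested. ERBB3 ends 1054 bases before PA2G4, whose reads changed by -0.45 (limma adjusted p = 0.0051).

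The 10 largest called falls in reads lay between -1.68 and -1.36 on the log2 scale. CDC20, an activator of the anaphase-promoting complex, had 432 and 492 reads with siCtrl, 203 and 100.8 under siSFPQ-2 and 203 and 197 with siSFPQ-3 (-1.44 ± 0.22, limma adjusted p = 0.000479). KIF18B, a mitotic kinesin, had 880 and 831 against 159 to 458 (-1.48). Its E fell by 1.82 and its L by 1.66, and its E/L change of -0.15 was not called (adjusted p = 0.792). KIF5C, a transport kinesin of neurons, fell by 1.46, and LYPD6B, which starts 11940 bases past it, rose by 2.45. LRRC45, which ends 527 bases before RAC3, had 324 and 300.2 reads against 73.1 to 165 (-1.41), and RAC3 changed by -1.24 (adjusted p = 0.00126). C11orf80, whose end lies inside RCE1 on the same strand, had 1641 and 1068 reads against 388 to 686 (-1.36), and its L fell by 1.59 while its E, at or past the start of that gene, fell by 0.55. TNFRSF6B, LINC02028, SMIM1, PRR35 and the long non-coding gene ENSG00000280018 fell by 1.68, 1.501, 1.49, 1.41 and 1.41. The calls of SMIM1 and PRR35 were lost without siCtrl library 2 (adjusted p = 0.0705 and 0.0797).

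Genes of the machinery that cuts and ends transcripts were read from a fixed list of 43, all tested, of which 7 rose and 9 fell (37.2%, against 48% of all features). XRN2, the exonuclease of termination, went from 1230 and 1210 reads to 1610.5, 1896, 1898 and 2104.5 (log2 change 0.62 ± 0.10, limma adjusted p = 0.000643). PPP1CB, a phosphatase subunit of the cleavage complex, rose by 0.52 and PAPOLG, a poly(A) polymerase, by 0.61. CPSF1, the largest subunit of the cleavage and polyadenylation specificity factor, fell from 919 and 929 to between 559 and 703 (-0.60 ± 0.11, adjusted p = 0.00122). SSU72, a phosphatase of the polymerase tail, fell by 0.47 and LSM11, a subunit of the U7 particle that processes histone mRNAs, by 0.86. PCF11, CPSF2, CPSF3, CSTF2 and CSTF3 were not called (-0.15, -0.17, -0.15, -0.06 and 0.09). Whether any of these bears on the signal past the members' ends was not tested.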

How the data were processed

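The submitters' processing notes name DESeq2 1.38.1, SAMtools 1.3.1, Bowtie2, cutadapt 1.14 and UMI-tools, and the builds hg38 and dm6, with no order or role. The authors deposited signal per gene as normalized reads and signal in 500 bins per gene and library. Every value of normalized reads was a whole multiple of 1 read (100% at a tolerance of 0.1 read), and edgeR 4.0.16 on the recovered reads called 187 members higher and 229 lower.

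Genes in more than 1 profile file (17) were dropped and bins averaged over libraries. Repeated lines of the reads table (240) were removed. Normalized reads of at least 10 in 2 libraries, E and L (L of at least 5), and their ratio were put on a log2(value + 1) scale and fitted over all genes and all 3 groups by limma 3.58.1 (R 4.3.3, eBayes with a trend), adjusted by Benjamini-Hochberg at 0.05. This scale understates the change of low values. On simulated reads the fit recovered 57 of 100 changes of 1 and 86 of 100 changes of 2 (log2, 21773 features); on simulated E/L, 9 and 52 of 100 (15276 genes).

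Within each group the libraries differed beyond counting noise (chi-square per degree of freedom 10.3, 11.0 and 22.7). Strand came from RefSeq or from the profile values (the same in 99.98% of 16544 genes). The next gene is the nearest same-strand RefSeq start past the outer end of the member's span, which need not be the end used for the profiles.

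Members and lists were chosen with earlier results of these data known. Named are the 10 highest E/L, the 3 genes on either side of its threshold, up to 10 called rises and falls in reads and 5 in E/L with all siSFPQ libraries on one side, their next genes, 3 factors per direction, and SFPQ; other called members, families and the E box were chosen after their values were seen. Some items that this rule names are not reported here.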

Additional observations from a re-analysis of the deposited data

Results flagged for a closer look

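WFDC21P, a pseudogene, differed between the siRNAs in a direct test. Its normalized reads were 3.98 and 5.54 in the siCtrl libraries, 12.5 and 8.86 after siSFPQ-2, but 61.3 and 72.9 after siSFPQ-3, a log2 difference of siSFPQ-3 over siSFPQ-2 of 2.56 (limma adjusted p = 0.0477). WFDC21P passed the filter of at least 10 reads in 2 libraries only through siSFPQ-3, so the filter favours this direction. Of 885 members it was the one called in that contrast, where 0.101% of all features were called. At an unadjusted p under 0.05, 46 members were higher and 63 lower, a count that was not made over all features. The difference was below 0 in 58.2% of members and in 49.6% of all features. The call was lost with a pseudocount of 0.1, with a filter of 50, with libraries scaled to the same total, and without either siCtrl library, siSFPQ-2 library 2 or siSFPQ-3 library 2.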

How the results depend on the processing

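The members' median log2 change of E/L (both siRNAs) stayed between -0.32 and -0.24 under every alternative run, while counts of calls did not. For the mean of both siRNAs, 34 members lower and 5 higher in E/L became 3 and 0 with E as the median of its bins, 6 and 1 with E over the first 50 bins past the end, 15 and 3 with L of at least 1, 19 and 2 with a pseudocount of 0.1, 52 and 11 with a pseudocount of 5 and 21 and 3 among the 345 members with E/L of at least 3, a smaller set. For siSFPQ-2, 10 lower and 2 higher became in that order 0 and 0, 1 and 0, 1 and 0, 2 and 0, and 18 and 6, with 1 higher at E/L of at least 3 and 16 lower with L of at least 10. For siSFPQ-3, 2 lower became 1 with the first 4, 19 lower and 4 higher with a pseudocount of 5, 16 and 1 with L of at least 10 and 4 lower with equal totals. E lower in 183 became 86 with its median and 97 over the first 50 bins. With E/L of at least 3, E was higher in 21 and lower in 68, L in 74 and 51, and reads in 74 and 90 (both siRNAs), 60 and 73 (siSFPQ-2) and 64 and 85 (siSFPQ-3). Between the siRNAs, 1 member higher in reads became 0 with a filter of 50, equal totals, a pseudocount of 0.1 or E/L of at least 3. Over those 50 bins the changes of SOS2 and ANK2 turned to 0.39 and -1.09. The causes were not tested.

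The labels' replicate numbers were not shown to pair the libraries: deviations from the group means correlated at 0.053 and 0.059 between siCtrl and either siRNA and at 0.382 between the siRNAs. With the replicate number as a block, 20 members were lower and 4 higher in E/L for both siRNAs, 2 and 0 under siSFPQ-2, and 1 and 0 under siSFPQ-3; in reads 280 were lower and 207 higher, and between the siRNAs 5 lower and 21 higher. With the block SFPQ itself passed as lower (-0.22, limma adjusted p = 0.0492).

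Leaving out 1 library at a time, reads gave 115 to 204 higher and 123 to 253 lower (both siRNAs), 93 to 170 higher and 87 to 204 lower (siSFPQ-2), 96 to 158 higher and 105 to 229 lower (siSFPQ-3), 0 to 16 higher and 0 to 2 lower (siSFPQ-3 against siSFPQ-2); E/L gave 0 to 4 and 1 to 19 (both siRNAs), 0 to 0 and 0 to 2 (siSFPQ-2), 0 to 0 and 1 to 2 (siSFPQ-3); E gave 20 to 59 and 23 to 149, and L 84 to 165 and 26 to 115. Depth limits members of low L most, where 1 read was worth 2.59 to 4.13 in a bin.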
